A study of Homo sapiens with 12 samples.

Results

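The potassium channel genes were taken as every gene whose symbol starts with KCN and reads as letters followed by a number, a rule that uses names alone and no measured value. It found 94 of the 25369 genes with counts, and takes in pore-forming subunits, modifier subunits, and accessory proteins such as KCNIP1. RNA-seq had been carried out on U2OS cells, a human osteosarcoma line, in 12 samples that made up 4 Tet-On inducible stable lines with 3 biological replicates each. The pTRE line carried the empty vector, and the WT, R109K, and KK lines carried HA-tagged E2F1, a transcription factor of the cell cycle, as wild type, with 1 arginine changed to lysine (R109K, named by its residue), or with those at residues 111 and 113 changed to lysine (R111/113K, called KK). All 4 lines were grown under G418 and hygromycin B and received doxycycline at 1 µg/ml for 24 hours, so pTRE is a control for the drug and the vector. E2F1 was driven by the doxycycline-responsive promoter of pTRE2-hyg in cells that keep their own E2F1 gene, and whether a line is 1 clone or a pool is not given in the sources used here. The data address which potassium channel genes these cells transcribe, and how their RNA differs between the lines.

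Potassium channels are membrane pores that let potassium ions leave the cell and so set the resting voltage, the firing of excitable cells, cell volume, and the voltage changes that go with cell division. The voltage-gated family (Kv pore genes KCNA, KCNB, KCNC, KCND, KCNQ, and KCNH) opens on depolarization. The Kv modifier genes (KCNF, KCNG, KCNS, KCNV) encode subunits that pass no current alone and alter the channels they join. The inward rectifiers (Kir, KCNJ) include the ATP-sensitive channels, the tandem-pore channels (K2P, KCNK) carry leak current, and a further family opens on calcium or sodium (KCNMA, KCNN, KCNT, KCNU). Accessory proteins (KCNAB, KCNE, KCNIP, KCNMB) bind to a pore and change its gating or delivery. In bulk RNA, fewer cells making a transcript and less transcript per cell cannot be told apart.

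Between 11500537 and 31040903 reads per sample fell on genes. The fewest were in WT replicate 2, with 58.7% of its reads assigned to no counted feature against 23.6% to 29.6% in the other 11 samples. Where those reads lay is not given in the sources used here. E2F1 RNA rose in all 3 E2F1 lines, by log2 fold changes of 4.31 in WT, 3.85 in KK, and 3.67 in R109K, and R109K lay below WT with a log2 fold change of -0.65 that did not pass the threshold (adjusted p = 0.0577). Of 9 osteoblast lineage markers, COL1A1 and SPARC were abundant, whereas SP7, IBSP, BGLAP, and COL1A2 were at or near 0. Their summed level was 4695 to 5895 CPM (read counts put on one library size with TMM factors) in pTRE and 1025 to 1745 CPM in the E2F1 lines. At an adjusted p under 0.01 and more than 2-fold, COL1A1 and SPP1 fell in all 3 lines, and SPARC fell in WT and KK. In R109K, SPARC had a log2 fold change of -0.97 (adjusted p = 0.000374), under 2-fold. Of 8 neuron markers, TUBB3 fell in all 3 lines and RBFOX3 rose in R109K. RBFOX3 was at 0.65 in KK (adjusted p = 0.0042), under 2-fold, and at 0.35 in WT (adjusted p = 0.0895). Of 5 epithelial markers, KRT8 fell in WT. Its values of -0.91 in KK (adjusted p = 0.000765) and -0.74 in R109K (adjusted p = 0.00478) were under 2-fold. The 4 blood markers summed to less than 1 CPM in every sample. The part that these shifts play in the potassium channel values was not tested.

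Of the 94 genes, 92 had reads, 74 had reads in every sample, and 52 had at least 10 reads in every sample. KCNG4 and KCNK16 had none. In pTRE, 47 genes were above a mean of 1 CPM and 17 above 10 CPM. A filter on low counts left 71 genes for testing, of which 27 were Kv pore genes of 30, 7 Kv modifiers of 10, 10 Kir genes of 16, 10 K2P genes of 15, 7 calcium- or sodium-activated genes of 8, and 10 accessory genes of 15. The other 23 had at most 14 reads in any sample. Besides KCNG4 and KCNK16 they were KCNA10, KCNC2, and KCND2 of the Kv pore genes, KCNS2 and KCNS3 of the modifiers, KCNJ6, KCNJ9, KCNJ12, KCNJ15, KCNJ16, and KCNJ18 of the Kir genes, KCNK4, KCNK15, KCNK17, and KCNK18 of the K2P genes, KCNU1, and the accessory genes KCNE1, KCNE2, KCNE3, KCNMB1, and KCNMB2. KCNJ12 and KCNJ18 are near-identical copies, so the reads of each are uncertain. The filter asked for enough reads in at least 3 samples. KCNH4 and KCNK12 would have missed it without the R109K samples, KCNH7 without the WT samples, and KCNA5 without those of either line, and none of these 4 passed the thresholds in any comparison.

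Levels of different genes were compared per length, as RPKM over the union of exons for the 93 genes found in the GENCODE annotation of GRCh37. KCNN4, the intermediate-conductance calcium-activated channel that controls the volume of red cells and the membrane voltage of lymphocytes, stood far above the rest. Its level in pTRE was 41.2, 46.6, and 62.8 RPKM, with every pTRE sample above every pTRE sample of the next gene. KCNH3, a Kv channel of the forebrain, followed at 10.2, 10.5, and 13.1 RPKM, again with no overlap with the gene after it. Most of the next genes in the order overlapped with their neighbours between samples. KCNG1, a modifier, stood at 6.35, 7.21, and 8.35 RPKM. KCNA6, a delayed rectifier, was at 6.17, 6.18, and 7.43 RPKM. The K2P leak channel KCNK1 stood at 5.93, 4.90, and 7.04 RPKM and KCNK5, a leak channel opened by alkaline pH, at 3.49, 4.57, and 4.92 RPKM. KCNJ8, the pore of an ATP-sensitive channel of vessel muscle, was at 4.05, 3.99, and 4.05 RPKM in pTRE, with no overlap with KCNQ5, a slow Kv channel, at 2.48, 3.23, and 2.45 RPKM. KCND1, a fast-inactivating Kv channel, was the tenth at 1.92, 2.05, and 2.91 RPKM, overlapping with KCNQ5. With the longest transcript as the length, 9 of the 10 highest genes were shared.

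**Figure D1:**
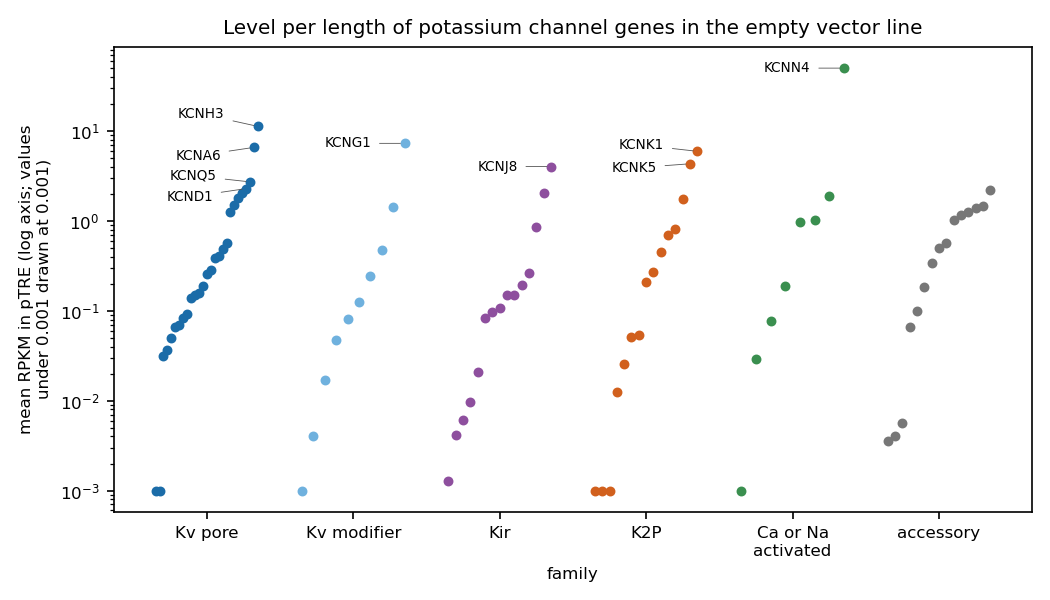
Mean level per length in pTRE (RPKM, log axis, n = 3) of 90 potassium channel genes with an annotated length, each a point, grouped by family and sorted within it. Of the highest genes 9 are named, and KCNN4 at 50.2 ± 11.2 RPKM (SD) lies above KCNH3 at 11.3 ± 1.57 RPKM.

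The order shifted in the E2F1 lines. KCNN4 and KCNH3 stayed at ranks 1 and 2 by mean RPKM in all 4 lines. KCNK1 went from rank 6 in pTRE to rank 3, and KCNK5 from rank 7 to rank 4, in each of WT, KK, and R109K. KCND1 went from rank 10 to rank 28 in WT, 27 in KK, and 28 in R109K, and KCNJ8 from rank 8 to rank 20, 15, and 17. The summed level of the 94 genes was 646 to 801 CPM in pTRE, 917 to 1010 CPM in WT, 945 to 958 CPM in KK, and 839 to 888 CPM in R109K, so that every E2F1 sample lay above every pTRE sample. Without KCNN4 the sums were 517 to 605 CPM in pTRE and 719 to 938 CPM in the E2F1 lines.

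E2F factors bind sites of the form TTTCGCGC, TTTGGCGC, TTTCCCGC, and TTTGCCGC, and these letters were searched on both strands of RefSeq promoters (GRCh38.p14, 250 bases before to 50 bases after the gene start). Promoters were at hand for 70 of the 94 genes. Of these, 4 held a match (5.71%), beside 908 of all 27305 promoters (3.33%) and 4.95% of the promoters of tested genes. They are shown because they are the potassium channel promoters that hold the letters of the factor expressed here, each in the direction of its gene with the match in capitals.
KCNK13 (chr14:90061744-90061801, plus strand, match 230 bases before the start): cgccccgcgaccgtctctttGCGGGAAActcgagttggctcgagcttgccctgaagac
KCNQ5 (chr6:72621977-72622044, plus strand, match 57 bases before the start): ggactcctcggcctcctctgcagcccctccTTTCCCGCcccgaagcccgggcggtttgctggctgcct
KCNIP2 (chr10:101843843-101843910, minus strand, match 80 bases before the start): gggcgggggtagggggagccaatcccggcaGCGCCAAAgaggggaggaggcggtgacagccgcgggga
KCNA6 (chr12:4809140-4809207, plus strand, match 164 bases before the start): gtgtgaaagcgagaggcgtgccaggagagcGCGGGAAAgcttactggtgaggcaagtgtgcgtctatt
A match is a run of letters and not a measured site. KCNK13 rose in all 3 E2F1 lines, and KCNQ5, KCNIP2, and KCNA6 did not pass the thresholds in any of them. Of the 18 potassium channel genes that rose in any line and had a promoter at hand, 1 held a match (5.56%), beside 4.77% of the 1028 tested genes of any kind that rose and had one. Of the 30 tested potassium channel genes that passed the thresholds in no line, 3 held a match (10%).

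Against pTRE, potassium channel genes were up-regulated more often than down-regulated. A transcript is called regulated at an adjusted p under 0.01 and a change greater than 2-fold in edgeR's quasi-likelihood test. In WT, 24 of the 71 tested genes were regulated (33.8%, against 11.8% of all 16625 tested genes), with 22 up (7.89% of all tested genes were up) and 2 down (3.93%). In KK, 19 were regulated (26.8%, against 10.9%), with 18 up (against 7.01%) and 1 down (against 3.9%). In R109K, 14 were regulated (19.7%, against 7.19%), with 12 up (against 4.64%) and 2 down (against 2.56%). The median log2 fold change of the tested genes was 0.60 in WT, 0.32 in KK, and 0.46 in R109K, whereas that of all tested genes was 0.0022, -0.0091, and -0.0007. These 3 comparisons share the pTRE samples. In all, 27 genes were regulated in at least 1 line and 44 in none. The share of all tested genes regulated in at least 1 line was not counted.

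**Figure D2:**
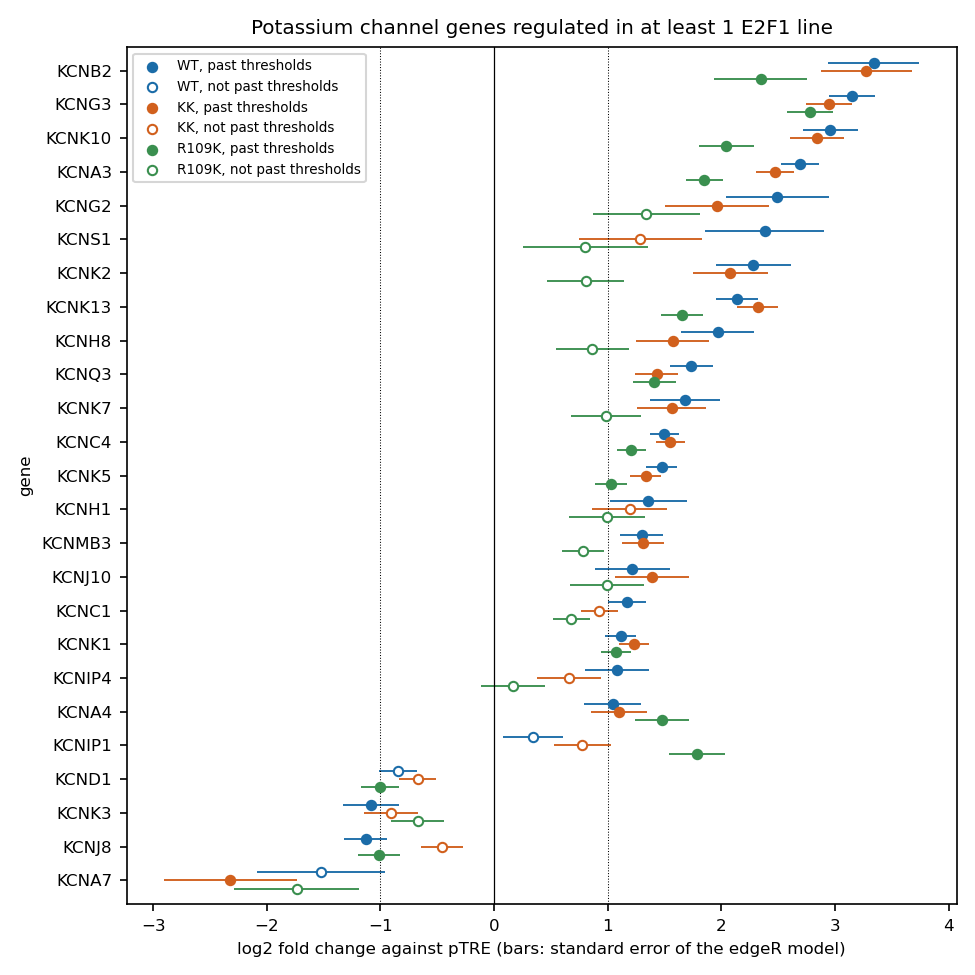
Log2 fold change against pTRE (x axis) of 25 potassium channel genes regulated in at least 1 E2F1 line (y axis), in WT (blue), KK (orange), and R109K (green). Bars are standard errors of the edgeR model, filled points passed both thresholds, and dotted lines mark 2-fold. From KCNB2 at the top to KCNIP1, 21 genes lie to the right of 0 in all 3 lines, and KCND1, KCNK3, KCNJ8, and KCNA7 lie to the left.

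In all 3 lines, 11 genes rose, and they belong to 3 families. The share of all tested genes that rose in all 3 lines was not counted, and the 3 comparisons share the pTRE samples. Among the 11 genes were the Kv pore genes KCNA3, KCNA4, KCNB2, KCNC4, and KCNQ3, the modifier KCNG3, and the K2P genes KCNK1, KCNK5, KCNK10, and KCNK13. For each of these 11 genes, every sample of every E2F1 line lay above every pTRE sample. Because the genes were chosen by their calls in these same samples, this separation adds no further support. Its share over all tested genes was not counted. In the values that follow, ± gives the SD over n = 3 for a level and the standard error of the model for a log2 fold change.

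Among the Kv pore genes, 10 of 27 rose in WT, 8 rose and 1 fell in KK, and 6 rose and 1 fell in R109K. Shares over all tested genes were 7.89% up in WT, 7.01% up and 3.9% down in KK, and 4.64% up and 2.56% down in R109K. KCNA3, a channel best known for setting the voltage of T lymphocytes (chromosome 1, 111196182 to 111217562, minus strand, GRCh37), stood at 5.62, 5.70, and 6.17 CPM in pTRE, 43.4, 39.2, and 30.5 in WT, 36.4, 26.5, and 34.1 in KK, and 23.7, 18.8, and 20.6 in R109K. It rose by log2 fold changes of 2.69 ± 0.17 (adjusted p = 2.08e-08) in WT, 2.47 ± 0.17 (adjusted p = 4.26e-08) in KK, and 1.85 ± 0.16 (adjusted p = 1.23e-06) in R109K. The R109K samples lay below all WT and KK samples. KCNB2, a delayed rectifier, stood at 0.330, 0.228, and 0.184 CPM in pTRE, 2.53, 2.49, and 2.57 in WT, 2.56, 2.64, and 2.05 in KK, and 1.13, 0.690, and 2.01 in R109K. Its log2 fold changes, the largest of the family, were 3.34 ± 0.40 (adjusted p = 1.2e-05) in WT, 3.27 ± 0.40 (adjusted p = 1.47e-05) in KK, and 2.35 ± 0.41 (adjusted p = 0.000544) in R109K, from a low level in pTRE.

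KCNC4, a fast-inactivating channel (chromosome 1, 110752936 to 110825722, plus strand, GRCh37), stood at 27.6, 33.9, and 37.5 CPM in pTRE, 92.6, 102, and 85.5 in WT, 102, 93.6, and 94.5 in KK, and 81.8, 70.6, and 76.6 in R109K. Its log2 fold changes were 1.50 ± 0.13 (adjusted p = 3.82e-07) in WT, 1.55 ± 0.13 (adjusted p = 2.6e-07) in KK, and 1.21 ± 0.13 (adjusted p = 5.44e-06) in R109K. KCNC1, which lets neurons fire fast, rose in WT (1.17 ± 0.17), and its values of 0.93 ± 0.17 in KK and 0.68 ± 0.17 in R109K were under 2-fold. Without pTRE replicate 1 the WT value was 0.99, and without pTRE replicate 3 the KK value was 1.10 and passed. KCNA4, a channel of transient outward currents in heart and brain, stood at 1.24, 1.10, and 0.918 CPM in pTRE, 2.24, 2.01, and 2.42 in WT, 2.63, 2.02, and 2.33 in KK, and 3.53, 2.40, and 3.15 in R109K. Its log2 fold changes were 1.04 ± 0.25 (adjusted p = 0.00365) in WT, 1.10 ± 0.24 (adjusted p = 0.00239) in KK, and 1.48 ± 0.24 (adjusted p = 0.000316) in R109K. Leaving out single samples took the adjusted p of KCNA4 over 0.01 in WT (pTRE replicates 2 and 3, and WT replicates 1 and 3, values 0.93 to 1.05) and in KK (pTRE replicates 2 and 3, and KK replicate 1, values 0.99 to 1.11).

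KCNQ3 encodes a subunit of the channels that carry the M current, a brake on neuronal firing. It stood at 19.0, 25.3, and 24.4 CPM in pTRE, 73.1, 84.7, and 71.4 in WT, 60.5, 44.5, and 80.0 in KK, and 61.5, 51.3, and 69.6 in R109K. KCNQ3 rose by 1.74 ± 0.19 (adjusted p = 4.9e-06) in WT, 1.43 ± 0.19 (adjusted p = 3.01e-05) in KK, and 1.41 ± 0.19 (adjusted p = 5.51e-05) in R109K. The KCNQ3 samples of R109K lay below those of WT, with a value of -0.33 ± 0.18 (adjusted p = 0.292) that did not pass the thresholds. KCNQ5, the highest KCNQ gene per length in pTRE, was at 30.8 ± 4.96 CPM in pTRE and 39.4 ± 2.06, 38.4 ± 5.96, and 42.4 ± 4.22 CPM in WT, KK, and R109K, with no value past the thresholds. KCNH8 rose in WT (1.97 ± 0.32) and KK (1.57 ± 0.32), and its R109K value was 0.87 ± 0.32 (adjusted p = 0.0589). KCNH1, a channel studied for its presence in tumours, rose in WT (1.36 ± 0.34) and stood at 1.19 ± 0.33 in KK (adjusted p = 0.011). Its WT call was lost without pTRE replicate 1, pTRE replicate 2, or WT replicate 2, the last at 1.00. It was also lost with only the 6 samples of WT and pTRE (1.39, adjusted p = 0.0182). The KK value passed with DESeq2 (adjusted p = 0.00478), without a filter on low counts (0.00743), with at least 10 counts in every sample (0.00894), and with only the 6 samples of KK and pTRE (0.00445).

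Down-regulation in the Kv pore family was seen for 2 genes. KCNA7, a channel of muscle, stood at 1.20, 1.79, and 1.80 CPM in pTRE, 0.249, 1.12, and 0.470 in WT, 0.346, 0.192, and 0.395 in KK, and 0.194, 0.291, and 0.983 in R109K. In KK it fell, with a log2 fold change of -2.32 ± 0.58 (adjusted p = 0.00556), and the values in WT (-1.52 ± 0.56, adjusted p = 0.0419) and R109K (-1.74 ± 0.55, adjusted p = 0.0277) lay on the same side without passing. Each single sample of pTRE or KK that was left out took the KK call away (adjusted p = 0.0106 to 0.0234), whereas leaving out WT replicate 2 or R109K replicate 3, the highest of their lines, gave calls in WT (-2.14) and R109K (-2.70). KCND1 fell in R109K, as described with the KCNIP genes. The 15 Kv pore genes that passed in no line ranged from -0.73 (KCNQ1) to 1.60 (KCNH4) in WT, from -0.59 to 0.67 in KK, and from -1.02 to 1.93 in R109K, with the same 2 genes at the ends each time.

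**Figure D3:**
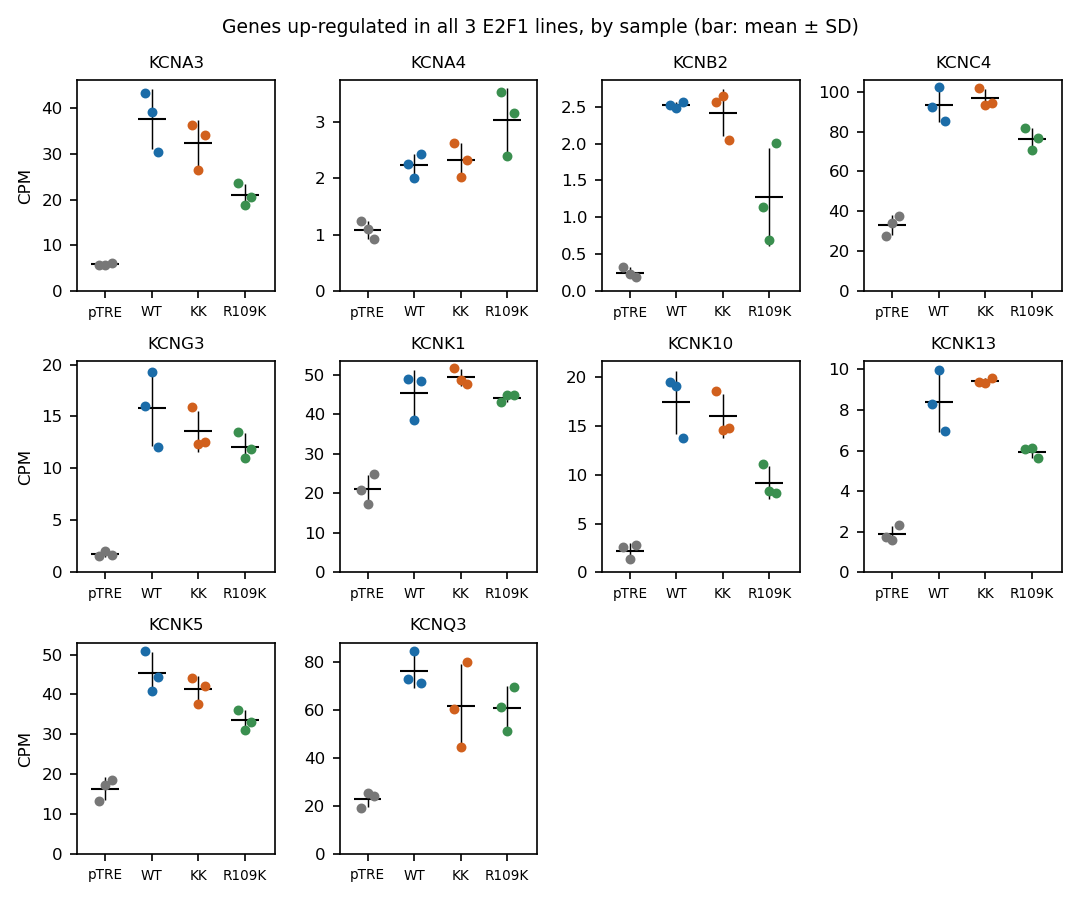
Level in CPM (y axes, linear from 0, a scale for each gene) of 10 potassium channel genes that rose in all 3 E2F1 lines, by line (x axes). Points are the 3 replicates, and bars give the mean ± SD. All points of WT (blue), KK (orange), and R109K (green) lie above all pTRE points (grey) in each panel. The genes were chosen by their calls in these same samples.

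Among the 7 tested Kv modifiers, 3 rose in WT, 2 in KK, and 1 in R109K, and none fell. Over all tested genes, 7.89%, 7.01%, and 4.64% rose in WT, KK, and R109K, and 3.93%, 3.9%, and 2.56% fell. KCNG3, a silent subunit that joins the KCNB channels (chromosome 2, 42669157 to 42721122, minus strand, GRCh37), stood at 1.57, 2.01, and 1.69 CPM in pTRE, 16.0, 19.3, and 12.1 in WT, 15.9, 12.4, and 12.5 in KK, and 13.5, 11.0, and 11.8 in R109K. It rose by 3.15 ± 0.20 (adjusted p = 2.43e-08) in WT, 2.95 ± 0.20 (adjusted p = 4.75e-08) in KK, and 2.78 ± 0.20 (adjusted p = 2.01e-07) in R109K, the largest change of any potassium channel gene in R109K, and the samples of the 3 E2F1 lines overlapped. KCNG2 rose in WT (2.49 ± 0.45) and KK (1.96 ± 0.46) from 0.191 ± 0.0927 CPM in pTRE, and stood at 1.34 ± 0.47 in R109K (adjusted p = 0.0459). The KK call of KCNG2 was lost without pTRE replicate 1 or 2 or KK replicate 1 (values 1.70 to 1.87). KCNS1, another silent partner of KCNB channels, rose in WT (2.38 ± 0.52), where WT replicate 2 stood at 2.65 CPM beside 1.07 and 0.795 CPM in the other samples, and the call was lost without pTRE replicate 1 (2.24, adjusted p = 0.0137) or 2 (2.38, adjusted p = 0.0109). KCNG1, the highest modifier per length in pTRE, was at 39.6 ± 5.42 CPM in pTRE and had values of -0.37 in WT, -0.0048 in KK, and -0.25 in R109K, none past the thresholds.

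In the K2P family, 6 of 10 tested genes were up and 1 down in WT, 6 were up in KK, and 4 were up in R109K. Shares over all tested genes were 7.89% up and 3.93% down in WT, 7.01% up in KK, and 4.64% up in R109K. KCNK10 and KCNK2 encode leak channels opened by stretch, heat, and membrane lipids. KCNK10 (chromosome 14, 88646447 to 88793251, minus strand, GRCh37) stood at 2.60, 1.33, and 2.75 CPM in pTRE, 19.4, 19.0, and 13.7 in WT, 18.5, 14.6, and 14.8 in KK, and 11.1, 8.32, and 8.11 in R109K. It rose by 2.96 ± 0.24 (adjusted p = 2.89e-07) in WT, 2.84 ± 0.24 (adjusted p = 4.1e-07) in KK, and 2.04 ± 0.24 (adjusted p = 1.87e-05) in R109K, with every R109K sample below every WT and KK sample. KCNK2 stood at 1.03, 0.950, and 0.698 CPM in pTRE, 5.59, 4.58, and 2.93 in WT, 4.26, 3.27, and 3.79 in KK, and 2.11, 1.67, and 0.860 in R109K. It rose in WT (2.28 ± 0.33, adjusted p = 7.29e-05) and KK (2.08 ± 0.33, adjusted p = 0.000168), and in R109K its value of 0.81 ± 0.34 did not pass (adjusted p = 0.0941), with 1 R109K sample inside the range of pTRE.

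KCNK13, a leak channel inhibited by halothane and found in microglia (chromosome 14, 90528338 to 90652197, plus strand, GRCh37), is the riser whose promoter held a match to the E2F letters. It stood at 1.73, 1.60, and 2.31 CPM in pTRE, 8.30, 9.96, and 6.94 in WT, 9.38, 9.31, and 9.59 in KK, and 6.09, 6.14, and 5.61 in R109K. Its log2 fold changes were 2.14 ± 0.18 (adjusted p = 4.87e-07) in WT, 2.32 ± 0.18 (adjusted p = 1.86e-07) in KK, and 1.66 ± 0.18 (adjusted p = 1.01e-05) in R109K. KCNK5 (chromosome 6, 39156747 to 39197251, minus strand, GRCh37), which takes part in bicarbonate and volume handling in the kidney, stood at 13.2, 17.3, and 18.6 CPM in pTRE, 51.0, 41.0, and 44.5 in WT, 44.1, 37.7, and 42.2 in KK, and 36.2, 31.1, and 33.1 in R109K. KCNK1 stood at 20.9, 17.3, and 24.8 CPM in pTRE, 49.0, 38.6, and 48.6 in WT, 51.7, 48.8, and 47.7 in KK, and 43.0, 44.9, and 44.9 in R109K. Both were already among the 10 highest genes per length in pTRE. KCNK5 rose by 1.47 ± 0.14 (adjusted p = 1.25e-06) in WT, 1.33 ± 0.14 (adjusted p = 3.08e-06) in KK, and 1.03 ± 0.14 (adjusted p = 5.9e-05) in R109K, the last just past 2-fold and lost without pTRE replicate 1 (0.90) or R109K replicate 1 (0.97). KCNK1 rose by 1.12 ± 0.14 (adjusted p = 1.3e-05), 1.23 ± 0.14 (adjusted p = 5.1e-06), and 1.07 ± 0.13 (adjusted p = 3.17e-05), and without pTRE replicate 2, its lowest sample, it came to 0.99 in WT and 0.95 in R109K, under 2-fold.

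KCNK7, a relative of KCNK1 for which no current has been found, rose in WT (1.68 ± 0.31) and KK (1.56 ± 0.31), and its R109K value was 0.99 ± 0.31 (adjusted p = 0.0263). KCNK3, an acid-sensitive leak channel of the carotid body and pulmonary artery, was the K2P gene that fell. It stood at 4.25, 3.91, and 4.89 CPM in pTRE, 2.74, 1.37, and 1.88 in WT, 2.32, 2.74, and 1.93 in KK, and 2.56, 2.65, and 2.99 in R109K. Its log2 fold changes were -1.08 ± 0.24 (adjusted p = 0.00255) in WT, -0.90 ± 0.24 (adjusted p = 0.00782) in KK, and -0.67 ± 0.24 (adjusted p = 0.0442) in R109K, of which the first passed both thresholds. The WT call was lost without pTRE replicate 3 (-0.998, adjusted p = 0.0136), WT replicate 2 (-0.91), or WT replicate 3 (-1.03, adjusted p = 0.0103), and without KK replicate 2 a call appeared in KK (-1.03). The other 3 tested K2P genes, KCNK6, KCNK9, and KCNK12, passed in no line.

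In the Kir family, 1 of 10 tested genes was up and 1 down in WT, 1 was up in KK, and 1 was down in R109K. Shares over all tested genes were 7.89% up and 3.93% down in WT, 7.01% up in KK, and 2.56% down in R109K. KCNJ8, the pore of the ATP-sensitive channel of smooth muscle, stood at 10.2, 10.0, and 10.2 CPM in pTRE, 4.74, 3.21, and 5.64 in WT, 6.54, 8.02, and 7.58 in KK, and 4.44, 5.92, and 4.67 in R109K. It fell, with log2 fold changes of -1.13 ± 0.19 (adjusted p = 0.000233) in WT and -1.01 ± 0.18 (adjusted p = 0.000734) in R109K, and in KK its value was -0.46 ± 0.18 (adjusted p = 0.0596). All samples of the 3 lines lay below all pTRE samples. The WT call came to -0.97 without WT replicate 2, and the R109K call to -0.94 and -0.97 without R109K replicates 1 and 3, each under 2-fold. KCNJ11, the pore of the ATP-sensitive channel of pancreatic beta cells, was at 4.28 ± 0.817 CPM in pTRE and had values of 0.53 ± 0.18 in WT, 0.57 ± 0.18 in KK, and 0.81 ± 0.17 in R109K, under 2-fold. KCNJ10, which clears potassium in glia, rose in WT (1.21 ± 0.33, adjusted p = 0.00869) and KK (1.39 ± 0.32, adjusted p = 0.00334) from 0.605 ± 0.0302 CPM. Both calls were close to the threshold, and leaving out pTRE replicate 1, 2, or 3, WT replicate 2 or 3, or KK replicate 1 or 3 took the adjusted p of the comparison it enters to between 0.0121 and 0.0364.

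The sulfonylurea receptors that surround these ATP-sensitive pores were also measured. ABCC8, the receptor that pairs with KCNJ11 in beta cells, stood at 1.45, 1.67, and 2.35 CPM in pTRE, 5.27, 7.15, and 5.13 in WT, 6.82, 5.76, and 6.08 in KK, and 5.45, 4.32, and 6.43 in R109K. ABCC9, which pairs with KCNJ8 in muscle, stood at 3.72, 2.93, and 3.78 CPM in pTRE, 10.9, 11.8, and 8.31 in WT, 6.43, 6.39, and 8.21 in KK, and 4.21, 2.98, and 4.22 in R109K. ABCC8 rose in all 3 lines (1.66, 1.76, and 1.56 in WT, KK, and R109K). ABCC9 rose in WT (1.57) and KK (1.01), had a value of 0.13 in R109K (adjusted p = 0.688), and was lower in R109K than in WT (-1.44 ± 0.20, adjusted p = 0.00275). These 2 genes were the ones that passed among the 9 tested of 11 partner proteins outside the naming rule. Of all tested genes, 7.89% rose in WT, 7.01% in KK, and 4.64% in R109K.

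None of the 7 tested calcium- or sodium-activated genes passed both thresholds in any line. Over all tested genes, 11.8% passed in WT, 10.9% in KK, and 7.19% in R109K. KCNN4, the highest potassium channel gene per length, stood at 129, 146, and 196 CPM in pTRE, 75.1, 71.6, and 102 in WT, 67.8, 116, and 103 in KK, and 91.8, 119, and 117 in R109K. All samples of the E2F1 lines lay below all pTRE samples, and its values were -0.92 ± 0.21 (adjusted p = 0.00248) in WT, -0.71 ± 0.20 (adjusted p = 0.0131) in KK, and -0.52 ± 0.20 (adjusted p = 0.0709) in R109K, each under 2-fold. KCNMA1, the large-conductance calcium- and voltage-activated channel, was at 40.4 ± 2.03 CPM in pTRE, with values of 0.07, 0.29, and -0.15 in WT, KK, and R109K. KCNT2, a sodium-activated channel, had values of -0.83 ± 0.21 in WT, -0.96 ± 0.21 in KK, and -0.54 ± 0.21 in R109K. KCNMB3, an accessory subunit of KCNMA1, rose in WT (1.30 ± 0.19, adjusted p = 6.8e-05) and KK (1.31 ± 0.19, adjusted p = 6.17e-05) and stood at 0.78 ± 0.19 (adjusted p = 0.0053) in R109K, under 2-fold. Its annotated exons share 3403 bases with PIK3CA on the opposite strand, and the strand setting of the counting is not given in the sources used here.

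The KCNIP genes encode calcium-binding proteins that attach to the KCND channels, which carry fast transient currents in neurons and heart. KCNIP1 (chromosome 5, 169780491 to 170163636, plus strand, GRCh37) was the potassium channel gene that differed between E2F1 lines past both thresholds in the model of all 12 samples. It stood at 1.49, 1.71, and 1.80 CPM in pTRE, 1.57, 2.49, and 2.39 in WT, 2.35, 3.31, and 2.96 in KK, and 5.54, 7.30, and 4.46 in R109K. All 3 R109K samples lay above all other samples, and the WT samples overlapped with pTRE. KCNIP1 rose in R109K (1.79 ± 0.25, adjusted p = 7.41e-05), while its values in WT (0.34 ± 0.26, adjusted p = 0.307) and KK (0.78 ± 0.25, adjusted p = 0.0246) did not pass. R109K lay above WT by a log2 fold change of 1.45 ± 0.25 (adjusted p = 0.00684) and above KK by 1.01 ± 0.24 (adjusted p = 0.054), so that the first passed and the second did not in that model. The difference from WT kept its direction and a size of 1.24 to 1.60 with any single sample of WT or R109K left out, but its adjusted p rose to 0.0356 without WT replicate 1 and to 0.0233, 0.0458, and 0.0244 without R109K replicates 1, 2, and 3. It was 0.0604 when the model held the 6 samples of WT and R109K alone. The rise against pTRE in R109K passed under all 12 alternatives run for it, which did not include a test of the fold change against 2-fold.

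The other KCNIP genes differed from KCNIP1. KCNIP2 stood at 5.37, 4.45, and 5.18 CPM in pTRE, 5.45, 11.9, and 6.18 in WT, 5.40, 4.71, and 6.20 in KK, and 3.44, 4.94, and 5.16 in R109K, KCNIP3, which also acts as a calcium-dependent repressor of transcription, at 8.10, 9.73, and 10.3 CPM in pTRE, 14.1, 12.3, and 13.0 in WT, 15.5, 16.8, and 13.1 in KK, and 13.8, 11.1, and 12.5 in R109K, and KCNIP4 at 2.89, 2.47, and 1.62 CPM in pTRE, 4.24, 7.23, and 3.61 in WT, 4.50, 3.07, and 3.40 in KK, and 2.53, 2.65, and 2.62 in R109K. Between R109K and WT the values were -0.76 ± 0.26 (adjusted p = 0.112) for KCNIP2, -0.08 ± 0.14 (adjusted p = 0.764) for KCNIP3, and -0.92 ± 0.28 (adjusted p = 0.0789) for KCNIP4, all on the lower side for R109K and none past the thresholds. KCNIP4 rose in WT against pTRE (1.08 ± 0.28, adjusted p = 0.00634), with WT replicate 2 the highest sample. Without WT replicate 2 it came to 0.76, and without pTRE replicates 2 and 3 its adjusted p was 0.0181 and 0.0358. KCNIP2 and KCNIP3 passed in no line against pTRE. Exons of KCNIP2 and KCNIP4 overlap with genes on the opposite strand, KCNIP2-AS1 and PACRGL.

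Of the channels that KCNIP proteins join, KCND1 was the highest per length in pTRE. It stood at 11.7, 12.5, and 17.7 CPM in pTRE, 7.16, 8.75, and 7.59 in WT, 8.93, 9.17, and 8.17 in KK, and 6.35, 6.83, and 7.70 in R109K. KCND1 fell in R109K (-1.0045 ± 0.17, adjusted p = 0.000329), and its values in WT (-0.84 ± 0.17, adjusted p = 0.000972) and KK (-0.67 ± 0.16, adjusted p = 0.00456) were under 2-fold, with all E2F1 samples below all pTRE samples. The R109K call sat at the fold threshold, and it came to -0.80 without pTRE replicate 3, the highest pTRE sample, and to -0.95 and -0.99 without R109K replicates 1 and 2. KCND3 was at 1.62 ± 0.623 CPM in pTRE and 1.66 ± 0.624 CPM in R109K, and KCND2 had 7 reads over all 12 samples.

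**Figure D4:**
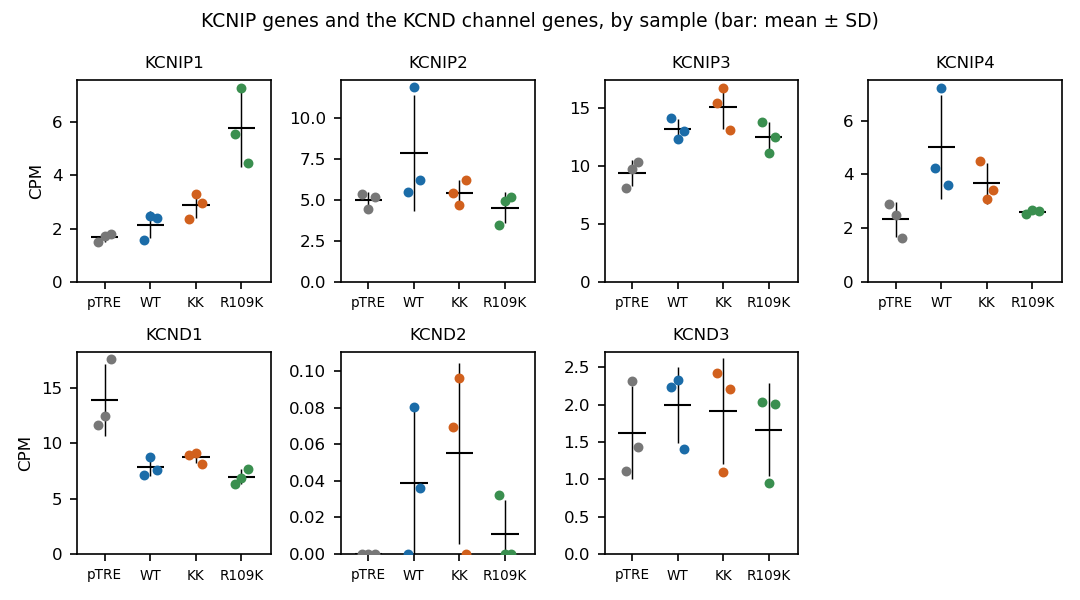
Level in CPM (y axes, linear from 0, a scale for each gene) of the 4 KCNIP genes and the 3 KCND channel genes, by line (x axes). Points are the 3 replicates, and bars give the mean ± SD. The R109K points of KCNIP1 (4.46 to 7.30 CPM) lie above all others, and the KCND1 points of the E2F1 lines lie below all pTRE points.

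The E2F1 lines were then compared directly. Between R109K and WT, KCNIP1 was the 1 potassium channel gene of 71 that passed both thresholds (1.41%, against 0.343% of all tested genes), and it was up (against 0.0962%). At an unadjusted p under 0.05 there were 27 genes (38%, against 22.3% of all tested genes), of which 24 were lower in R109K (against 12.9%) and 3 higher (against 9.46%). KCNA3 was at -0.84 ± 0.15 (adjusted p = 0.00932), which met the p threshold but not 2-fold. KCNK2 was at -1.48 ± 0.31 (adjusted p = 0.019), which met 2-fold but not the p threshold. It passed both with DESeq2 (adjusted p = 0.000981), without a filter on low counts (0.00633), with a block for the replicate number (0.00997), and without WT replicate 3 (0.00626). In WT and R109K samples with the same number, deviations from the line means correlated by -0.295 to 0.0742. No pairing of these lines by number was thus seen, which limits the result with the block. KCNK10 was at -0.91 ± 0.21 (adjusted p = 0.0312). The part in these differences of the E2F1 RNA level, which had a value of -0.65 in R109K against WT, was not tested.

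Between KK and WT no potassium channel gene passed, in edgeR or in DESeq2, and 0.00602% of all tested genes did. At an unadjusted p under 0.05 there were 8 genes (11.3%, against 8.51%), of which 6 were lower in KK (against 4.75%) and 2 higher (against 3.76%). Between R109K and KK none passed in either tool (against 0.0902%), and 21 genes had an unadjusted p under 0.05 (29.6%, against 12.4%), with 14 lower (against 7.39%) and 7 higher (against 5.01%) in R109K. KCNIP1 (1.01 ± 0.24, adjusted p = 0.054), KCNK2 (-1.27 ± 0.31, adjusted p = 0.0647), and KCNA3 (-0.62 ± 0.15, adjusted p = 0.0661) were the 3 nearest to the threshold. R109K and KK samples with the same replicate number deviated together, and in a model of these 6 samples with the number as a block 3 of 65 tested potassium channel genes passed (4.62%, against 0.803% of 16069 genes), 2 up (against 0.236%) and 1 down (against 0.566%). KCNIP1 was higher in R109K at 1.0003 ± 0.16 (adjusted p = 0.000155), at the edge of 2-fold. KCNK2 was lower at -1.29 ± 0.21 (adjusted p = 0.000253). KCNN3, a small-conductance calcium-activated channel named here after its values were seen, was higher at 1.93 ± 0.46 (adjusted p = 0.00536), with 0.242, 0.0480, and 0.355 CPM in KK and 0.519, 1.09, and 1.06 CPM in R109K, and it had an adjusted p of 0.0841 in the model of all 12 samples. The 7 genes that rose in WT and KK but did not pass in R109K (among them KCNG2, KCNH8, KCNJ10, KCNK2, KCNK7, and KCNMB3) passed the thresholds neither between R109K and WT nor between R109K and KK in the model of all 12 samples. The share of all tested genes with this pattern of calls was not counted.

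Potassium is also moved by pumps and cotransporters, of which 13 of 16 listed genes could be tested. WT and KK each had 2 that rose and 2 that fell, and R109K had 2 that fell. Of all tested genes, 7.89% rose and 3.93% fell in WT, 7.01% and 3.9% in KK, and 4.64% and 2.56% in R109K. SLC12A7, a potassium chloride cotransporter, stood at 119.5, 98.0, and 193 CPM in pTRE, 55.7, 62.7, and 71.6 in WT, 70.4, 58.3, and 69.5 in KK, and 65.0, 57.4, and 82.2 in R109K. It fell in all 3 lines (-1.11, -1.05, and -1.01 in WT, KK, and R109K). ATP12A, a proton potassium pump, rose in WT (2.45) and KK (2.51). REST, a repressor of many neuronal genes including channels, was at 125 ± 24.1 CPM in pTRE and 209 ± 18.0, 198 ± 10.0, and 161 ± 3.03 CPM in WT, KK, and R109K. Neither REST nor its cofactors RCOR1 and SIN3A passed both thresholds. REST met the p threshold but not 2-fold in WT (0.73, adjusted p = 0.000538) and KK (0.66, adjusted p = 0.00126). The same held for RCOR1 in WT (0.92, adjusted p = 0.000175) and KK (0.56, adjusted p = 0.00759). SIN3A met the p threshold in WT alone (0.49, adjusted p = 0.00804), and none of them met it in R109K.

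WT replicate 2 stood apart for several genes. It was the highest WT sample for 33 of the 71 tested potassium channel genes (46.5%, against 39.9% of all tested genes) and the lowest for 20 (28.2%, against 43.2%). KCNJ13, a Kir channel of epithelia, stood at 0.321, 7.87, and 0.687 CPM in WT, so that this sample set the WT mean. KCNAB1, an accessory subunit of KCNA channels, stood at 3.21, 12.8, and 3.40 CPM and KCNV2, a modifier of the retina, at 0.748, 4.26, and 0.542 CPM in WT, with the same sample far above the others. KCNJ14, another Kir gene, stood at 8.94, 20.4, and 9.03 CPM. These 4 genes did not pass the thresholds in WT. KCNJ13 shares 810 exon bases with GIGYF2 on the opposite strand and KCNJ14 shares 285 with GRWD1 on the same strand. Of the 16823 genes tested without WT replicate 2, 1832 were regulated in WT. Among them were 20 potassium channel genes, of which 19 were among the 24 of the full model. KCNH1, KCNIP4, KCNJ8, KCNJ10, and KCNK3 were lost and KCNA7 was gained.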

How the data were processed

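RNA-seq was analysed in 12 samples of 4 lines (pTRE, WT, R109K, and KK), each with 3 biological replicates. The authors deposited raw counts of reads per gene symbol, without normalization, for each sample. Per the labels and the methods, poly(A) RNA was made into directional libraries, reads were trimmed with Trim Galore 0.4.3 and aligned to hg19 with STAR 2.5.1, and the authors tested with DESeq2 1.16.1. The annotation version and the strand setting of the counting are not given in the sources used here. The summary lines for uncounted reads (34.3% to 68.8% of the reads) were left out of library sizes.

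Counts were fitted with edgeR 4.0.16 in R 4.3.3, with filterByExpr, TMM, 1 quasi-likelihood model over all 12 samples, and Benjamini-Hochberg adjustment over 16625 genes. Thresholds were an adjusted p under 0.01 and more than 2-fold. CPM used TMM library sizes, and RPKM divided them by the exon union of GENCODE v44 lifted to GRCh37. The step was tested on simulated data. Alternatives were DESeq2 1.42.0, RLE, other filters, only 6 samples, a replicate block, glmTreat, an adjusted p under 0.05, and leaving out each sample. Deviations from the line means correlated by 0.294 to 0.470 in the 3 pairs of R109K and KK samples with the same replicate number and by -0.342 to 0.037 in the 6 with different numbers, so these 2 lines were also fitted alone with the number as a block, an alternative chosen after seeing the data.

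Genes named with values were those past the thresholds in any comparison, the 10 highest per length in pTRE, and the KCNIP genes, and further genes were chosen after their values were seen (KCNA2, KCNA10, KCND2, KCND3, KCNH4, KCNJ11, KCNK17, KCNMA1, KCNMB1, KCNN3, KCNQ1, KCNT2, KCNU1, and the genes high in WT replicate 2). The genes and lists were chosen with earlier results of these data known. Promoters came from RefSeq. P-values measure the spread between samples of 1 line of each kind, so a line and its construct cannot be told apart. A few genes of these groups enter the counts and are not reported here by name. Splicing and immunoprecipitated RNA were not analysed here.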

Additional observations from a re-analysis of the deposited data

Results flagged for a closer look

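KCNIP1 differed between the effects of R109K and WT. Against pTRE its log2 fold change was 1.79 ± 0.25 in R109K and 0.34 ± 0.26 in WT (± standard error), and the direct test of the difference gave 1.45 (adjusted p = 0.00684 from edgeR). All 3 R109K samples lay above all 3 WT samples. Groups of 3 were too small for a search for outlying samples.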

How the results depend on the processing

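No call of a named gene changed its sign under any alternative run for it. When the fold change itself was tested against 2-fold with glmTreat, the regulated potassium channel genes numbered 9 in WT, 6 in KK, 3 in R109K, and 0 between R109K and WT. Among all 16625 tested genes the counts were 592, 567, 311, and 1. Between R109K and WT, 2 genes were regulated with DESeq2, without a filter, with a replicate block, and at an adjusted p under 0.05, and 0 with only the 6 samples. In the same order, all regulated genes were 134 and 99 of 22831, 53 and 150 of 16625, and 0 of 16179. Leaving out each sample in turn gave 18 to 25 genes in WT, 15 to 19 in KK, 11 to 14 in R109K, and 0 to 2 between R109K and WT. Among all 16823 to 16993 tested genes the ranges were 1667 to 2316, 1606 to 1801, 974 to 1158, and 3 to 157. With only the 6 samples compared, 19 genes were regulated in WT (1744 of all 16184 tested). KK had 22 (1903 of 16057) and R109K 15 (1341 of 16016). KCNA4, KCNH1, KCNIP4, KCNJ10, and KCNK3 lost their WT calls in that edgeR fit (adjusted p = 0.0133 to 0.0215). The causes of these changes were not tested. The alternatives run for single genes did not include glmTreat. In every alternative run for single genes, 14 of the 24 calls in WT, 14 of 19 in KK, and 10 of 14 in R109K held, and the 1 call between R109K and WT did not. The replicate numbers paired R109K with KK (correlations over 0.1 in all 3 pairs), and the paired fit of those 6 samples gave 3 genes between R109K and KK in place of 0. For pTRE and WT, 2 of 3 pairs with the same number were over 0.1 (range 0.0069 to 0.241), and 0 of 6 with different numbers. No paired fit of those 2 lines alone was run. For WT and R109K, 0 of 3 pairs with the same number were over 0.1 (range -0.295 to 0.0742), and 3 of 6 with different numbers. WT and KK likewise had 0 of 3 and 3 of 6. With the block over all 12 samples, 24 genes were regulated in WT, 19 in KK, and 13 in R109K, the last without KCND1 at -0.9952. Among all 16625 tested genes, that fit gave 1895, 1777, and 1169. At this depth 23 genes, with at most 14 reads in any sample, were not tested.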

Other observations

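KCNU1, a channel of sperm on which no test was run, had 0 reads in the 3 pTRE samples and 11 reads in WT, 16 in KK, and 5 in R109K. Set against the 3 reads that a count of 0 over the pTRE group allows, its level gave ratios of 4.18 in WT, 5.52 in KK, and 1.57 in R109K. These ratios leave out the counting error of the few reads in the E2F1 lines and the spread between samples. They are therefore not lower bounds on a change.

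Several potassium channel genes lie near each other (GRCh37). Differences between neighbours were not tested, and some neighbours had too few reads for any test. On chromosome 1, KCNA3 and KCNC4 rose in all 3 lines, whereas KCNA2, at a distance of 22086 bases from KCNA3, had values of 0.08 ± 0.24 in WT, 0.24 ± 0.24 in KK, and 0.45 ± 0.24 in R109K (± standard error) and KCNA10 had at most 4 reads in a sample. On chromosome 6, KCNK5 rose in all 3 lines, whereas KCNK17, at a distance of 69526 bases, had 1 read in all samples and KCNK16 had none. On chromosome 5, KCNMB1 overlaps with KCNIP1 on the opposite strand and had 19 reads in all samples. On chromosome 12, KCNA1, KCNA5, and KCNA6 lie within 500000 bases of each other, and none passed the thresholds in any line.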
